A study of Homo sapiens with 12 samples.

Results

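IFNγ binds its receptor on tumor cells, activates the kinases JAK1 and JAK2, and through them induces antigen presentation genes and the checkpoint ligand PD-L1. The same treatment also lowers the mRNA of many genes, a side of the response that is studied less, and in epithelial cells these include genes of matrix, adhesion and differentiation. The genes described here were the IFNγ-repressed genes of HT1376 CT, a control line made from the bladder cancer line HT1376, and their levels were followed in HT1376 FOXP3 KO, its partner line lacking the transcription factor FOXP3.

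RNA-seq was available for 12 libraries in 4 groups of 3: HT1376 CT untreated, HT1376 CT with IFNγ, HT1376 FOXP3 KO untreated and HT1376 FOXP3 KO with IFNγ. IFNγ was given for 48 hours. The study names 100 ng/mL for its stimulation of these lines and does not repeat the dose for RNA-seq. Both lines carry CRISPR reagents: HT1376 CT received a guide against luciferase, HT1376 FOXP3 KO received guides against exon 2 of FOXP3, and each was grown from a single cell, so each line is 1 clone and differences between clones and loss of FOXP3 cannot be told apart. The sources do not say that the libraries of a group came from separate cultures. P-values therefore reflect at most the spread between these libraries, which may be technical.

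The genes were chosen by their counts in HT1376 CT. A gene was included when its mean CPM (counts per 1e6 counts of the library, not corrected for gene length) was 3 or more in untreated HT1376 CT, when its mean with IFNγ was at most 0.5 times that, and when its highest IFNγ library lay below its lowest untreated library. Of 60666 genes, 12239 reached 3 CPM, 200 of these (1.63%) met all conditions, and 185 remained after 15 were left out by name, because LINC, HOX, collagen, keratin, cadherin, integrin and several other families and TEK were not considered. The decrease in HT1376 CT therefore chose the genes and is described without a test. HT1376 FOXP3 KO libraries played no part in the choice, and only the IFNγ comparison within that line was tested. Just inside the limit of 0.5 were TSPAN2, with a ratio of 0.498, and TGFB2, with 0.4995, and just outside were P3H3 and PRSS3, each at 0.501. At the CPM minimum, VAMP1 (3.03) and SFTA1P (3.09) were inside, while ELF5 (2.90) and FAT3 (2.89) were outside.

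FREM2 and TM4SF1 had been given as typical genes of the set. FREM2 was a member, and TM4SF1, a tetraspanin-like surface protein of epithelial tumors, was not, since its mean untreated level was only 1.03 CPM. TM4SF1 had 18, 11 and 47 counts in untreated HT1376 CT libraries 11, 12 and 13, against 1, 0 and 4 with IFNγ. In HT1376 FOXP3 KO it had 4, 0 and 0 counts untreated and 0, 0 and 3 with IFNγ, which is too few to follow.

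Libraries held 4490684 to 39270042 counts, and IFNγ-treated HT1376 CT library 12 was the shallowest, with fewer than 10 counts for 60 of the 185 genes. FOXP3 itself had at most 3 counts in any library, so it could not check the labels. All 7 epithelial markers and 4 of 6 urothelial markers (GATA3, PPARG, UPK1B and TP63) had a median of at least 1 CPM in each group, while UPK2 stayed under 1 CPM in both untreated groups and UPK3A was at 0 there. Summed levels of 5 leukocyte markers were 0.663 to 2.79 CPM and of 5 endothelial markers 0.643 to 9.29 CPM over all libraries. Summed levels of 5 fibroblast markers were 3.71 to 12.5 CPM in HT1376 CT and 139 to 250 CPM in HT1376 FOXP3 KO, through DCN and LUM, which code for secreted proteoglycans. PDGFRB, of the same list, had a median of 0.178 CPM in untreated HT1376 CT and 2.10 in untreated HT1376 FOXP3 KO. THY1 ran from 1.89 to 10.8 CPM in untreated HT1376 CT and was at most 0.320 CPM in untreated HT1376 FOXP3 KO. PDGFRA was at most 0.331 and 0.0585 CPM in these groups.

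Together, the 185 genes made up 0.803%, 0.692% and 0.739% of the counts in untreated HT1376 CT libraries 11, 12 and 13, and 0.346%, 0.245% and 0.298% with IFNγ. The corresponding shares in HT1376 FOXP3 KO were 0.856%, 0.804% and 0.925% untreated and 0.690%, 0.647% and 0.752% with IFNγ. Treated and untreated libraries did not overlap in either line, and the distance between them was smaller in HT1376 FOXP3 KO. The separation in HT1376 CT follows from the choice of genes. Abundant genes weigh more in these sums. In untreated HT1376 FOXP3 KO the sums were 8038 to 9249 CPM, with means of 1322 for FBN2 and 1010 for FBN1. With IFNγ the sums there were 6469 to 7524 CPM, with means of 934 and 783. THBS1 had the highest mean in untreated HT1376 CT, at 897 CPM.

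**Figure D1:**
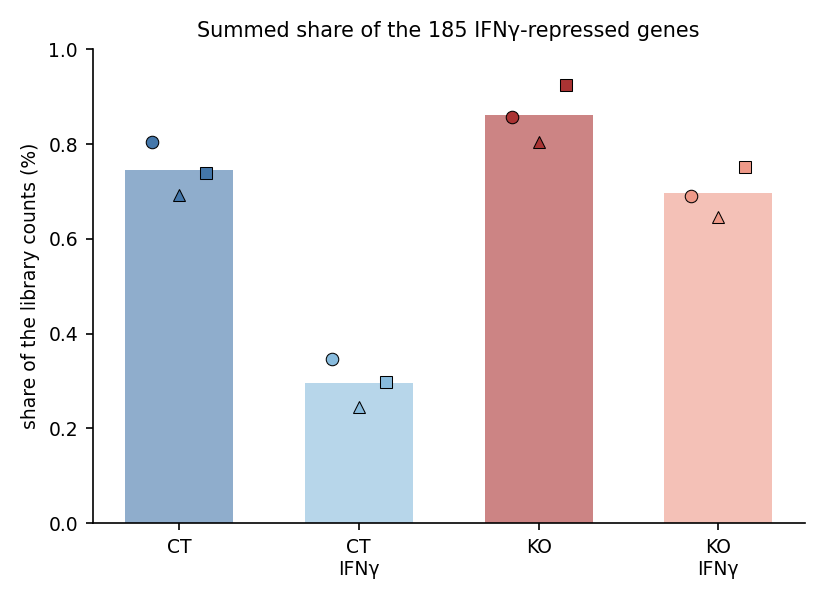
Share of each library's counts (%, y axis) that fell on the 185 genes, by group (x axis). Bars are means of 3 libraries and points are libraries 11 (circle), 12 (triangle) and 13 (square). With IFNγ the share was 0.245% to 0.346% in HT1376 CT and 0.647% to 0.752% in HT1376 FOXP3 KO.

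In HT1376 CT the members were 2.0 to 9.22 times lower with IFNγ, with a median of 2.34. Ratios of mean CPM put 35 genes at 3 times lower or more and 9 at 4 times lower or more: FREM2, ADORA1, CRIP2, FBN2, P2RY2, CD24, AC098934.2, WNT10A and ENSG00000287963. Median log2 ratios within a library number were -1.16 for 11, -1.55 for 12 and -1.20 for 13, so the number with the shallowest treated library showed the lowest ratios. Over the 11292 genes at 3 CPM or more in both untreated groups, the median log2 ratio in HT1376 CT was -0.14, and scaling with TMM factors instead of column totals raised the HT1376 CT ratios by 0.0561 (log2), which left 149 genes in the set.

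Members were followed in HT1376 FOXP3 KO with the quasi-likelihood test of edgeR, with Benjamini-Hochberg adjustment over all 24131 genes that had at least 10 counts in the 6 libraries. Of the 185 members, 179 were tested. By this test 0 were called lower and 0 higher with IFNγ at an adjusted p under 0.05, beside 0.00414% of all genes called lower and 0.978% called higher. At an unadjusted p under 0.05, 25 members (14.0%) were lower, against 1.45% of all genes tested, and 0 were higher. DESeq2 called 4 members lower (CERK, FREM2, PLXND1 and RAB15), against 0.0456% of all genes, and 0 higher, against 1.37%. Its unadjusted p was under 0.05 with a lower level for 24 members (13.4%), against 1.14% of all genes.

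Libraries of the same number varied together within a line, so the fit was repeated with the number as a block. With the replicate block, 42 members (23.5%) were called lower, against 1.6% of all genes, and 1 was called higher, against 3.92%. With the block and a bias-adjusted deviance, 34 of the same 42 were called lower, against 0.97% of all genes, and 0 higher, against 3.29%. The 42 genes had 3 CPM or more in untreated HT1376 FOXP3 KO and were lower with IFNγ in each of the 3 numbers, and their log2 changes ran from -0.94 to -0.21 with a median of -0.46. Leaving out both libraries of number 11, 12 or 13 gave 24, 41 and 30 calls. For single genes below, log2 fold changes and SEs are from the fit without the block unless stated. Very small adjusted p with the block rest on 3 numbers and on the model. Without the bias-adjusted deviance, blocked p follow a normal distribution. For FREM2 the blocked edgeR fit gave a log2 change of -0.63, an SE of 0.061 and an unadjusted p of 1.1e-24. Such p rest on a spread pooled over genes, not on a gene's own spread between 3 numbers. Adding the bias-adjusted deviance raised the adjusted p, from 1.2e-10 to 6.7e-05 for P2RY2 and from 8.0e-14 to 1.5e-05 for ODC1.

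Most members had a fitted change below 0 in HT1376 FOXP3 KO, and the changes were small. The median log2 fold change of the 179 members was -0.26 (interquartile range -0.45 to -0.09), beside -0.0055 over all genes tested, and 151 (84.4%) were fitted below 0, against 50.9%. Every IFNγ library lay below every untreated library for 27 members (15.1%), against 5.95%, and above for 2 (CLDN9 and CKB), against 5.6%. At 3 CPM or more in untreated HT1376 FOXP3 KO the medians were -0.27 over 145 members and -0.02 over 12266 genes, and 131 members (90.3%) had a fitted change below 0, against 54.0% of all such genes. In all 3 numbers, 92 of the 145 (63.4%) were lower, against 29.4%. Every IFNγ library lay below every untreated library for 24 of the 145 (16.6%), against 7.37%. Over all members with a CPM ratio (180, 178 and 178), median log2 ratios were -0.34, -0.33 and -0.28 in numbers 11, 12 and 13. For the 11292 genes at 3 CPM or more in both untreated groups, the median log2 ratio of mean CPM was -0.055.

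None of the 145 members had a mean with IFNγ of at most 0.5 times its untreated mean in HT1376 FOXP3 KO. Over the 12266 genes the share was 0.106%, so a count of 0 is near that share. The lowest ratio was 0.506, for KCNMB4, a subunit of a calcium-activated potassium channel. A median of 80.5% of the untreated level remained with IFNγ in HT1376 FOXP3 KO, against 42.9% for the same 145 genes in HT1376 CT. The second value is set by the choice of genes, so the difference between the lines was not tested.

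**Figure D2:**
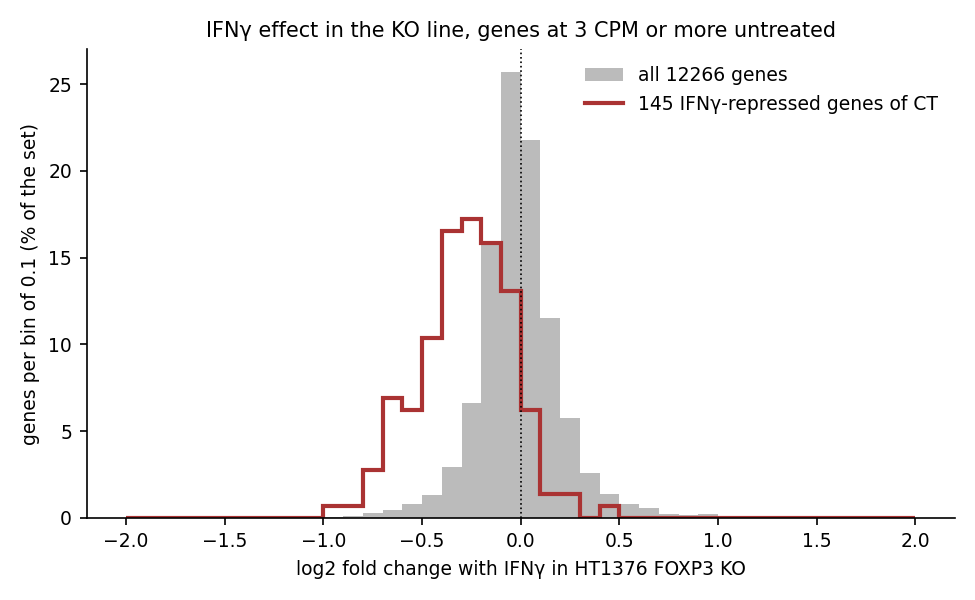
Distribution of log2 fold changes after IFNγ treatment of HT1376 FOXP3 KO (x axis, bins of 0.1) for the 145 members at 3 CPM or more (line) and all 12266 genes at that level (filled), as % of each set (y axis). The members' median was -0.27 and that of all genes -0.02, and 46 of all genes lie outside the plotted range.

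Across the 145 genes, Pearson's r between the log2 ratios of both lines was 0.17 and Spearman's rho 0.13. This is a description across genes, which are not independent and whose range in HT1376 CT the choice had cut. Over the 11292 genes at 3 CPM or more in both untreated groups, induced genes included, r was 0.71 and rho 0.50. Members at 3 times lower or more in HT1376 CT had a median of -0.23 (34 tested), and the others -0.27 (145 tested). By untreated level in HT1376 FOXP3 KO, the replicate block called 8 of 16 members at 100 CPM or more lower, 32 of 89 at 10 to 100 CPM, 2 of 40 at 3 to 10 CPM and 0 of 34 tested below 3 CPM. For all genes the shares at these levels were 5.72%, 2.83%, 1.42% and 0.0927%, so calls were also rarer at low levels over all genes.

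**Figure D3:**
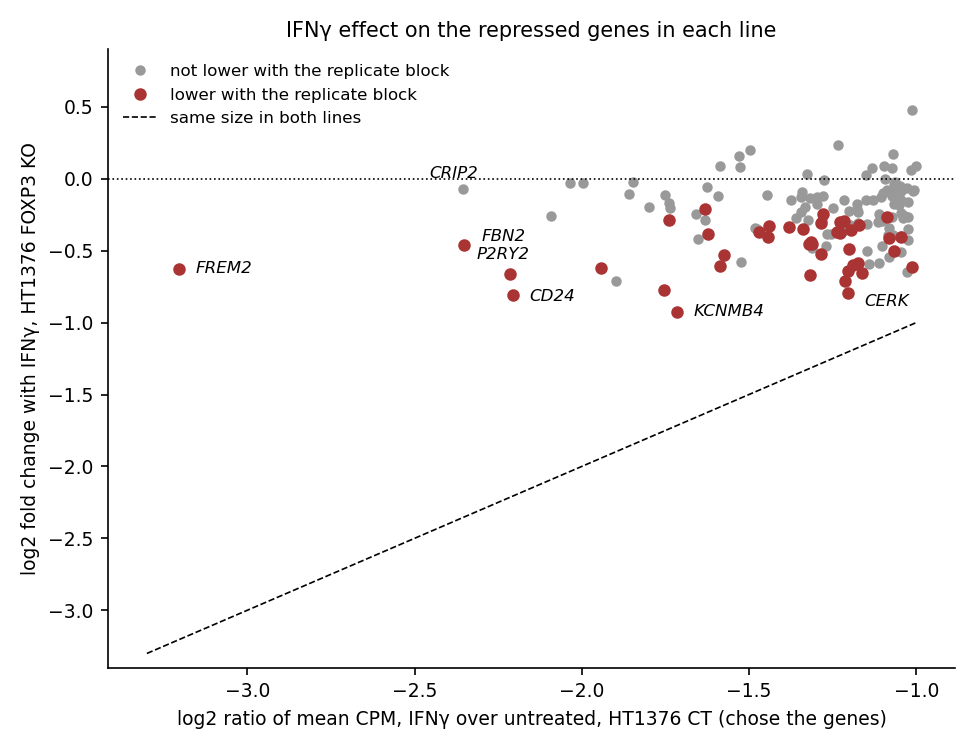
IFNγ effect in HT1376 FOXP3 KO as a log2 fold change (y axis) against the log2 ratio in HT1376 CT that chose the genes (x axis), 1 point for each of the 145 members at 3 CPM or more in untreated HT1376 FOXP3 KO. Red points were called lower with the replicate block, and every point lies above the dashed line of equal size. The x values are ratios of mean CPM and the y values edgeR fits with TMM, so the measures are not alike. Only the x values were bound by the choice of genes.

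Promoter windows from RefSeq (GRCh38.p14, 250 bases before to 50 after the start) were found for 133 of the 185 members. This is 71.9%, below the 80% needed for a check over the set, so a check over the set is void and the shares are given as a description. The GAS (gamma-activated site) motif, TTCNNNGAA, which reads alike on both strands, occurred in 8 of the 133 (6.02%), in 6.25% of 9418 expressed genes and in 7.88% of all 27305 windows. The ISRE motif, GAAANNGAAA on either strand, occurred in 2 (1.5%), against 2.94% and 3.65%. A forkhead motif, TAAACA on either strand, occurred in 10 (7.52%), against 6.69% and 12.4%. Parts of 3 windows are shown as examples of those that hold the letters of the IFNγ-related motifs. Other members held these letters too. The motif is in capitals, 5′ to 3′ on the strand of the gene, which is the plus strand in each case.
THBS1 (GAS, chr15:39580862-39580890): gcaccgacttTTCTGAGAAgttctagtgc
PALLD (GAS, chr4:168496902-168496930): gtggctttatTTCTAAGAAcccagccctc
ZNF774 (GAS, chr15:90352131-90352159): gggactacgtTTCCCAGAAggctaggcga
ZNF774 (ISRE, chr15:90352198-90352227): tctagccatgGAAACTGAAAagccaatagc
The GAS letters begin 207 bases before the start of THBS1, 140 before that of PALLD, which codes for an actin-associated protein, and 143 before that of ZNF774. A match is a description of letters in the window and shows no binding.

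FREM2, a basement membrane protein of the Fraser complex that joins epithelium to its underlying matrix (GRCh38, chr13:38687077-38887131, plus strand), had 24.8, 28.0 and 19.0 CPM in untreated HT1376 CT libraries 11, 12 and 13. With IFNγ it had 3.60, 1.11 and 3.07 CPM, which gave the lowest ratio of treated to untreated mean among the members. FREM2 in HT1376 FOXP3 KO had 241, 207 and 249 CPM untreated and 165, 123 and 151 with IFNγ. All 6 of these values exceeded every HT1376 CT value, and treated libraries lay below untreated ones. The log2 fold change was -0.63 (SE 0.12, adjusted p = 0.059 with edgeR), the smallest adjusted p of any member, and it passed with DESeq2 (adjusted p = 0.00254), with the replicate block (1.5e-22) and with the block and bias-adjusted deviance (1.8e-06).

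FBN2 and FBN1 encode fibrillins, the backbone of extracellular microfibrils, which also hold latent TGF-β family ligands. FBN2 (chr5:128257909-128659185, minus strand) had 257, 101 and 179 CPM in untreated HT1376 CT and 57.8, 19.4 and 28.0 with IFNγ. In HT1376 FOXP3 KO it had 1224, 1089 and 1652 CPM untreated and 872, 742 and 1188 with IFNγ, so the groups overlapped although every number was lower. Its log2 fold change was -0.46 (SE 0.19, adjusted p = 0.886 with edgeR, 6.9e-22 with the block, 8.3e-07 with the block and bias-adjusted deviance). FBN1 (chr15:48408313-48645721, minus strand) had 336, 339 and 347 CPM in untreated HT1376 CT and 152, 101 and 124 with IFNγ. In HT1376 FOXP3 KO it had 1021, 895 and 1114 CPM untreated and 814, 659 and 876 with IFNγ, without overlap. For FBN1 the log2 fold change was -0.33 (SE 0.12, adjusted p = 0.721 with edgeR, 2.6e-10 with the block).

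THBS1, thrombospondin, a secreted glycoprotein that binds matrix and activates latent TGF-β (chr15:39581079-39599466, plus strand), had far lower levels in HT1376 FOXP3 KO. It had 907, 641 and 1143.5 CPM in untreated HT1376 CT and 437, 245 and 499 with IFNγ, but 14.8, 5.35 and 24.7 in untreated HT1376 FOXP3 KO and 9.57, 4.53 and 14.3 with IFNγ there. The libraries of HT1376 FOXP3 KO overlapped between the treatments, library 12 being lowest in both. Its log2 fold change there was -0.60 (SE 0.51, adjusted p = 0.999 with edgeR, 0.00238 with the block). TGFB2, a TGF-β ligand, had 55.9, 53.4 and 57.8 CPM in untreated HT1376 CT and 27.2, 29.6 and 26.7 with IFNγ. TGFB2 in HT1376 FOXP3 KO had 38.5, 34.1 and 43.1 untreated and 44.8, 34.3 and 40.5 with IFNγ, which overlapped (log2 fold change 0.09, SE 0.14, adjusted p = 0.999).

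Role groups were drawn up after the members were known, and the genes below that lie outside the rule for named genes were chosen after their values were seen. Counts in each group are to be read against the shares for all tested genes, of which 1.6% were lower with the block and 50.9% were fitted below 0, and for all tested members, with 23.5% and 84.4%. No group was tested against the other members. Of 11 matrix and TGF-β family members, 0 were called in HT1376 FOXP3 KO by edgeR and 6 were lower with the block: FREM2, FBN1, FBN2, THBS1, CCDC80 and GDF11 (1.6% of all genes, 23.5% of members), with 8 of the 11 fitted below 0 (50.9% of all genes, 84.4% of members). The fibroblast marker sum that differed between the lines was 160 to 250 CPM in untreated and 139 to 218 CPM in IFNγ-treated HT1376 FOXP3 KO, and its part in these values was not tested.

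**Figure D4:**
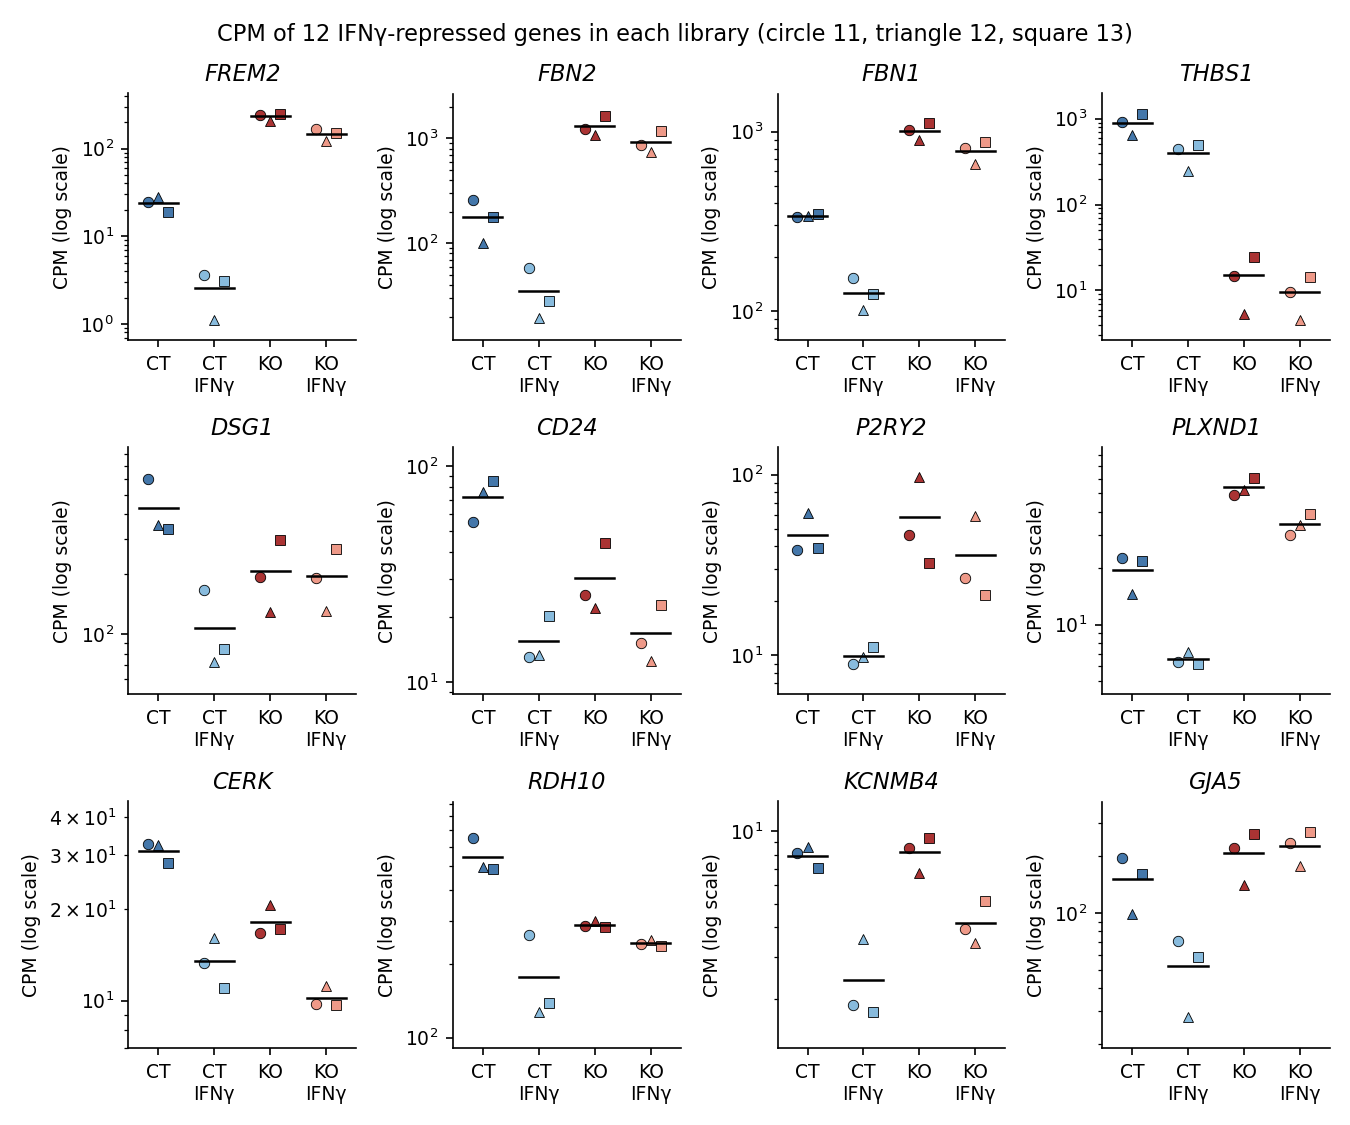
CPM (y axis, log scale) of 12 members in each library, by line and treatment (x axis). Points are libraries 11 (circle), 12 (triangle) and 13 (square) and lines are means of 3. In each panel the HT1376 CT groups are separate by the rule, and the HT1376 FOXP3 KO groups lie closer together, as for FREM2 with means of 232 and 146 CPM.

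Epidermal differentiation genes formed a group of 12. DSG1, a desmosomal cadherin of stratified epithelium, had 599, 355 and 337 CPM in untreated HT1376 CT and 167, 72.4 and 84.5 with IFNγ. In HT1376 FOXP3 KO it had 195, 129 and 297 CPM untreated and 193, 131 and 268 with IFNγ, which overlapped almost entirely (log2 fold change -0.03, SE 0.31, adjusted p = 0.999). EXPH5, a Rab27 effector needed for keratinocyte integrity, had 226, 121 and 165 CPM in untreated HT1376 CT and 102, 42.1 and 64.8 with IFNγ. Its HT1376 FOXP3 KO values of 220, 152 and 233 untreated and 192, 145 and 185 with IFNγ also overlapped (log2 fold change -0.17, SE 0.17, adjusted p = 0.999, 0.103 with the block).

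With the block, 2 of the 12 were lower, against 1.6% of all genes and 23.5% of members. They were IVL, involucrin of the cornified envelope (log2 fold change -0.49, SE 0.28, adjusted p = 0.999 with edgeR, 0.0486 with the block, 0.0554 with the bias-adjusted deviance too, which ends its call), and MPZL3 (-0.41, SE 0.12, adjusted p = 0.346 with edgeR, 3.1e-05 with the block). Several others were hardly present in untreated HT1376 FOXP3 KO. PADI2, which converts arginine in proteins to citrulline, had 47.4, 62.6 and 53.7 CPM in untreated HT1376 CT and 1.05, 1.15 and 3.33 in untreated HT1376 FOXP3 KO. Means in the same order were 61.8 and 2.23 CPM for KLK6, a serine protease, and 13.9 and 0.276 CPM for SPRR2E, a cornified envelope protein from a family of close copies.

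Of the 4 junction genes, GJA5 and GJB6 encode gap junction connexins. GJA5 had 195, 98.3 and 161 CPM in untreated HT1376 CT and 71.4, 27.8 and 58.0 with IFNγ. HT1376 FOXP3 KO libraries had 223, 141 and 263 CPM untreated and 236, 178 and 269 with IFNγ, higher in each number though the groups overlapped. GJA5 was the 1 member called higher with the block (log2 fold change 0.16, SE 0.22, adjusted p = 0.999 with edgeR, 0.0479 with the block), and with the bias-adjusted deviance the adjusted p was 0.203. GJB6 was lower with the block (-0.41, SE 0.25, adjusted p = 0.999 with edgeR, 0.00887 with the block), and its call too was lost with the bias-adjusted deviance (adjusted p = 0.107). CLDN9, a claudin of tight junctions, had 3.83, 5.51 and 3.08 CPM in untreated HT1376 CT, 0.541, 0.891 and 1.72 with IFNγ, 1.46, 1.24 and 1.34 in untreated HT1376 FOXP3 KO and 2.79, 1.77 and 1.96 with IFNγ there. The last 2 groups did not overlap, with treated libraries higher (log2 fold change 0.72, SE 0.33, adjusted p = 0.961).

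Receptors, ligands and guidance genes numbered 12, of which 11 were tested in HT1376 FOXP3 KO, 0 were called by edgeR and 3 (P2RY2, PLXND1 and PTPRS) were lower with the block, near the share over all members (23.5%, against 1.6% of all genes). P2RY2, a receptor for extracellular ATP and UTP, had 38.3, 61.1 and 39.4 CPM in untreated HT1376 CT and 8.92, 9.80 and 11.1 with IFNγ. The values in HT1376 FOXP3 KO were 46.2, 96.4 and 32.3 CPM untreated and 26.9, 59.2 and 21.5 with IFNγ. Library 12 was high in both treatments, which made the groups overlap although every number was lower (log2 fold change -0.66, SE 0.45, adjusted p = 0.999 with edgeR, 1.2e-10 with the block).

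PLXND1, a receptor for semaphorins, had 22.5, 14.6 and 21.9 CPM in untreated HT1376 CT and 6.31, 7.13 and 6.20 with IFNγ, and in HT1376 FOXP3 KO 48.9, 52.2 and 60.3 untreated against 29.9, 34.0 and 38.9 with IFNγ. These did not overlap (log2 fold change -0.61, SE 0.14, adjusted p = 0.161 with edgeR, 0.0348 with DESeq2, 1.7e-09 with the block). PTPRS, a receptor tyrosine phosphatase, had a log2 fold change of -0.64 (SE 0.16, adjusted p = 0.218 with edgeR, 2.6e-07 with the block).

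Among ligands of the Wnt and Notch pathways, WNT10A had 11.1, 17.4 and 21.0 CPM in untreated HT1376 CT and 2.43, 4.45 and 5.21 with IFNγ. Its values in HT1376 FOXP3 KO were 37.5, 26.4 and 40.1 untreated and 35.4, 21.8 and 41.8 with IFNγ, which overlapped (log2 fold change -0.03, SE 0.23, adjusted p = 0.999). NOTCH3, a Notch receptor, had means of 42.0 CPM untreated and 37.3 CPM with IFNγ in HT1376 FOXP3 KO (log2 fold change -0.13, SE 0.17, adjusted p = 0.999). NKD1, an inhibitor of Wnt signaling, had 9, 4 and 6 counts untreated and 1, 2 and 5 with IFNγ there. SLIT3, a secreted guidance ligand, had 53, 102 and 274 counts in untreated HT1376 CT but at most 3 in any HT1376 FOXP3 KO library and was not tested. ADORA1, an adenosine receptor, had 38, 59 and 127 counts in untreated HT1376 CT and 7, 3 and 10 with IFNγ. Its HT1376 FOXP3 KO values of 7, 0 and 18 counts untreated and 10, 2 and 18 with IFNγ were too few to give a direction.

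CD24, a small glycosylated surface protein of epithelial tumor cells, had 55.0, 75.5 and 85.2 CPM in untreated HT1376 CT and 13.1, 13.4 and 20.3 with IFNγ. HT1376 FOXP3 KO libraries had 25.3, 22.0 and 44.1 CPM untreated and 15.1, 12.6 and 22.7 with IFNγ, with the treated library 13 just above the untreated library 12. Its log2 fold change was -0.81 (SE 0.29, adjusted p = 0.686 with edgeR, 3.7e-10 with the block). CD24 has close pseudogene copies in the genome, so its counts are uncertain. KCNMB4 had 8.11, 8.58 and 7.05 CPM in untreated HT1376 CT and 1.89, 3.56 and 1.77 with IFNγ, and in HT1376 FOXP3 KO 8.56, 6.68 and 9.41 against 3.93, 3.42 and 5.12. Levels in both untreated groups overlapped, and IFNγ separated the libraries in HT1376 FOXP3 KO too (log2 fold change -0.93, SE 0.24, adjusted p = 0.231 with edgeR, 8.8e-05 with the block).

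For lipid and retinoid metabolism, 2 of 8 members were lower with the block and 7 of 8 were fitted below 0, near the shares over all members (23.5% and 84.4%, against 1.6% and 50.9% of all genes). RDH10, which makes retinaldehyde from retinol, had 651, 498 and 488 CPM in untreated HT1376 CT and 262, 128 and 139 with IFNγ. The values in HT1376 FOXP3 KO were 284, 298 and 284 CPM untreated and 240, 250 and 236 with IFNγ, without overlap and with little spread (log2 fold change -0.21, SE 0.09, adjusted p = 0.915 with edgeR, 0.00614 with the block). CERK, ceramide kinase, had 32.6, 32.3 and 28.2 CPM in untreated HT1376 CT and 13.3, 16.0 and 11.0 with IFNγ, and in HT1376 FOXP3 KO 16.7, 20.6 and 17.2 against 9.72, 11.2 and 9.65. CERK showed no overlap in either line (log2 fold change -0.80, SE 0.17, adjusted p = 0.0854 with edgeR, 0.0056 with DESeq2, 1.0e-06 with the block). In contrast MVK, mevalonate kinase of the sterol pathway, had 23.7, 47.8 and 25.0 CPM untreated and 25.6, 44.6 and 27.4 with IFNγ in HT1376 FOXP3 KO (log2 fold change 0.06, SE 0.31, adjusted p = 0.999). PPARG, a nuclear receptor of urothelial differentiation, had 22.6, 18.0 and 18.1 CPM in untreated HT1376 CT and 12.8, 7.13 and 9.33 with IFNγ, against 47.4, 64.0 and 59.1 untreated and 44.6, 58.6 and 53.8 with IFNγ in HT1376 FOXP3 KO (log2 fold change -0.08, SE 0.16, adjusted p = 0.999).

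Genes of actin, spectrin and the nuclear envelope included 3 of 7 that were lower with the block, against 1.6% of all genes and 23.5% of members: DBN1, an actin-binding protein, ANK1, an ankyrin, and SUN2, of the inner nuclear membrane. DBN1 lost its call with the bias-adjusted deviance (adjusted p = 0.0168 with the block, 0.0578 with both). SUN2 had 89.9, 90.5 and 90.8 CPM in untreated HT1376 FOXP3 KO and 68.2, 56.1 and 81.5 with IFNγ (log2 fold change -0.36, SE 0.13, adjusted p = 0.737 with edgeR, 0.000104 with the block). Of 6 ion channel genes tested, all 6 were fitted below 0 (50.9% of all genes, 84.4% of members), and 2, KCNMB4 and CACNG4, were lower with the block (1.6% and 23.5%). Of 6 kinase and cell cycle genes tested, 2, MAPK4 and CDKN2C, were lower with the block (1.6% of all genes, 23.5% of members), and CDKN2C lost its call with the bias-adjusted deviance (adjusted p = 0.0293 with the block, 0.0789 with both). PLK1, a mitotic kinase, was not called (log2 fold change -0.09, SE 0.26, adjusted p = 0.999). ODC1, the enzyme that commits ornithine to polyamine synthesis, had 73.1, 34.5 and 78.9 CPM untreated and 46.1, 18.2 and 46.4 with IFNγ in HT1376 FOXP3 KO. Each number was lower and library 12 was low in both treatments (log2 fold change -0.71, SE 0.36, adjusted p = 0.999 with edgeR, 8.0e-14 with the block).

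Genes normally expressed in placenta or germ cells formed a group of 4, of which 3 (ALPP, XAGE2 and ERVMER34-1) were lower with the block, against 1.6% of all genes and 23.5% of members. ALPP, placental alkaline phosphatase, had 28.8, 25.0 and 27.2 CPM in untreated HT1376 CT and 12.8, 7.35 and 12.4 with IFNγ, and in HT1376 FOXP3 KO 243, 312 and 210 against 154, 218 and 174 (log2 fold change -0.44, SE 0.18, adjusted p = 0.842 with edgeR, 1.3e-11 with the block). XAGE2, a cancer-testis antigen, had 41.7, 40.5 and 46.6 CPM untreated and 29.9, 36.3 and 30.5 with IFNγ in HT1376 FOXP3 KO, without overlap (log2 fold change -0.37, SE 0.14, adjusted p = 0.686 with edgeR, 0.00158 with the block). ALPP and XAGE2 have close copies, which makes their counts uncertain.

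RAB15, a small GTPase of endosomal recycling, had 3.03, 5.04 and 5.65 CPM in untreated HT1376 CT and 1.53, 1.34 and 1.2 with IFNγ. Its levels were several times higher in HT1376 FOXP3 KO, at 24.9, 19.7 and 19.7 CPM untreated and 15.6, 9.17 and 11.8 with IFNγ, without overlap between treatments (log2 fold change -0.77, SE 0.20, adjusted p = 0.221 with edgeR, 0.0365 with DESeq2, 3.1e-07 with the block). ATP7B, a copper transporter, had 97.5, 186 and 88.9 CPM untreated and 69.7, 132 and 62.5 with IFNγ in HT1376 FOXP3 KO, lower in each number although the groups overlapped (log2 fold change -0.45, SE 0.34, adjusted p = 0.999 with edgeR, 3.8e-09 with the block).

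GOLIM4, a Golgi membrane protein, had 272, 245 and 323 CPM untreated and 239, 205 and 248 with IFNγ in HT1376 FOXP3 KO (log2 fold change -0.24, SE 0.13, adjusted p = 0.999 with edgeR, 0.0011 with the block). KIAA1549, CRIP2, AC098934.2 and ENSG00000287963 had log2 fold changes of -0.09, -0.07, -0.26 and 0.14, each with an adjusted p of 0.999, and the last rested on at most 8 counts a library. None of the zinc finger genes ZNF704, ZNF488, ZNF385A and ZNF774 passed with edgeR or with the block, at -0.10, -0.24, -0.29 and -0.54, and neither did the solute carriers SLC35F3, SLC19A3, SLC9A3R2 and SLC25A10, at -0.25, -0.17, -0.34 and 0.31. TSPAN2, at the limit of the rule, stood at -0.54 (SE 0.54, adjusted p = 0.999).

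Untreated levels of the members already differed between the lines. Because HT1376 CT libraries chose the genes, these levels are a description. Every untreated HT1376 FOXP3 KO library lay above every untreated HT1376 CT library for 62 of the 185 genes and below it for 81, with overlap for 42, while over the 12239 genes at 3 CPM or more in untreated HT1376 CT the shares above and below were 27.6% and 31.5%. With IFNγ the corresponding counts were 91, 41 and 53, beside 29.7% above and 25.5% below over the same 12239 genes, and the low treated HT1376 CT values behind the first count were part of the choice. Means in untreated HT1376 FOXP3 KO were over 2 times those of HT1376 CT for 39 members, beside 6.33% of the 12239 genes, and under 0.1 times for 22, beside 4.0%. Highest ratios were seen for MOXD1, a monooxygenase-like protein (8.46, 8.58 and 8.38 CPM in HT1376 CT, 182, 139 and 187 in HT1376 FOXP3 KO), CLMN, NALCN, a sodium leak channel, and FREM2. At the other end, BLK, a Src family kinase, had 1182, 897 and 1936 counts in untreated HT1376 CT and 0 in each untreated HT1376 FOXP3 KO library, where a count of 0 allows up to 0.286 CPM in the shallowest. DNAH5, an axonemal dynein, had 740, 520 and 1523 counts in untreated HT1376 CT and 3, 7 and 0 in untreated HT1376 FOXP3 KO.

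Members with an untreated mean 2 times that of HT1376 CT or more changed by a median of -0.27 on the log2 scale after IFNγ treatment of HT1376 FOXP3 KO (39 tested). Members between 0.5 and 2 times had -0.26 (85 tested), and members at 0.5 times or less had -0.26 (55 tested). The block called 14 (35.9%), 21 (24.7%) and 7 (12.7%) of these lower, beside 6.97%, 2.46% and 2.74% of all tested genes in the same ranges at 3 CPM or more in untreated HT1376 CT. Calls also varied with the level in HT1376 FOXP3 KO, which these ranges follow. MALAT1 took 2.39% to 3.88% of counts in HT1376 CT and 4.47% to 5.27% in HT1376 FOXP3 KO, and mitochondrial genes 3.10% to 3.63% and 4.08% to 5.11%. The part of these differences in the levels was not tested.

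**Figure D5:**
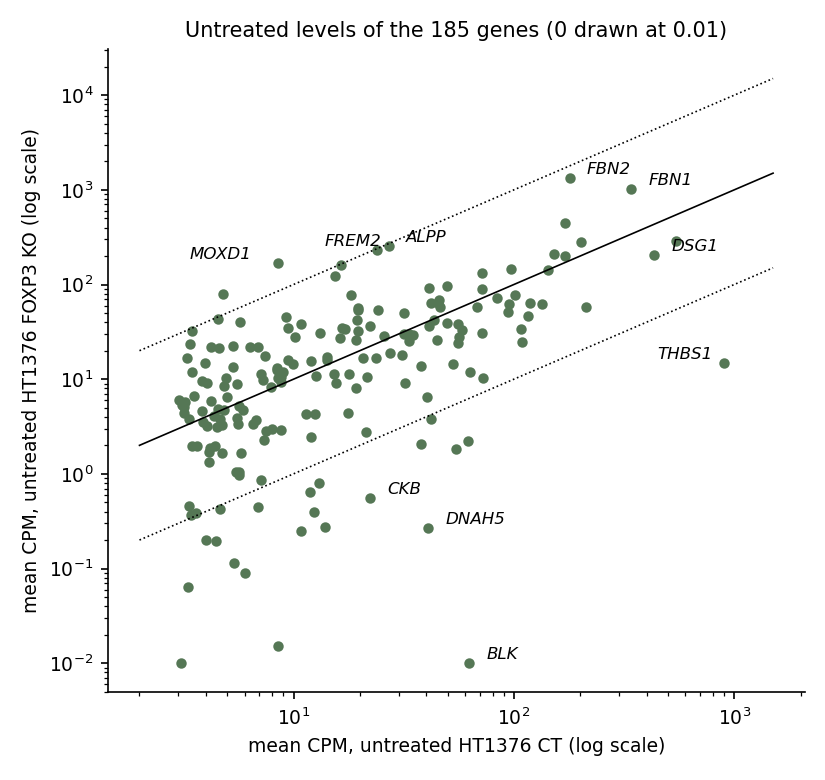
Mean untreated CPM of the 185 members in HT1376 FOXP3 KO (y axis) against HT1376 CT (x axis), both on log scales, with 0 drawn at 0.01. The solid line marks equal levels and dotted lines a 10-fold difference, and 22 genes had under 0.1 times the HT1376 CT mean, among them THBS1, BLK and DNAH5.

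IFNγ reached both lines. The list of genes induced by IFNγ held 11, among them IRF1, GBP1, GBP2, TAP1, PSMB9, IDO1 and CXCL10. All 11 were called higher in HT1376 FOXP3 KO by edgeR. Treated levels were not alike in both lines. Treated means in HT1376 CT and HT1376 FOXP3 KO were 95.6 and 14.9 CPM for IDO1, 827 and 375 for TAP1, and 4005 and 1835 for B2M. They were 774 and 770 CPM for GBP1. GBP2 alone of the 11 was higher in treated HT1376 FOXP3 KO, at 164 and 461 CPM. These differences between the lines were not tested. IRF1, a transcription factor of the interferon response, rose from 53.6 to 391 CPM in HT1376 FOXP3 KO (log2 fold change 2.91, SE 0.11, adjusted p = 6.9e-07), with means of 61.4 and 828 CPM in HT1376 CT. Of 17 genes of the IFNγ pathway, receptors, kinases and known negative regulators included, 5 were called higher in HT1376 FOXP3 KO, 8 with the block, and 0 lower. PRDM1, a transcriptional repressor, had means of 34.0 and 84.4 CPM in HT1376 CT and of 1.73 and 4.99 CPM in HT1376 FOXP3 KO (log2 fold change 1.58, SE 0.32, adjusted p = 0.0715 with edgeR, 1.3e-06 with the block).

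Of all genes at 3 CPM or more in untreated HT1376 CT, 1.63% met the rule, and the wider gene lists are given beside that share and the 1.6% lower and 3.92% higher with the block over all tested genes. The list of 18 Fraser complex and other non-collagen matrix genes held 4 (FREM2, FBN1, FBN2 and THBS1). Of its 10 genes at 3 CPM or more, 9 had a lower mean with IFNγ in HT1376 CT, the 4 members by the rule. No share over all genes stands beside this count, and the median log2 ratio over 11292 genes was -0.14 there. Of its 15 tested genes in HT1376 FOXP3 KO, 0 were called by edgeR and 4 were lower and 1 higher with the block. Of 25 Wnt and Notch genes, 14 of them at 3 CPM or more, WNT10A, NOTCH3 and NKD1 were members, and 0 of 22 tested were called in HT1376 FOXP3 KO, or 2 lower with the block. PLK1 was the sole member among 28 cell cycle and DNA replication genes, of which 0 were called and 4 were lower and 1 higher with the block. MVK was the sole member among 30 sterol and fatty acid synthesis genes, of which 0 were called and 3 were lower and 2 higher with the block. TGFB2 was the sole member among 23 YAP and TEAD targets, of which 0 were called and 6 were higher with the block.

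Replication-dependent histone genes, early response genes, EGF family ligands and the L6 tetraspanin-like family, to which TM4SF1 belongs, held no member. Histone genes had a median log2 ratio of -0.53 in HT1376 CT over 54 genes at 3 CPM or more. The median over the 11292 genes at that level in both untreated groups was -0.14. Of the 54 histone genes 50 were lower, without a share over all genes to set beside this count. The median in HT1376 FOXP3 KO was 0.04 over 69 tested, 0 were called by edgeR, and 1 was lower and 2 higher with the block. Of 689 ZNF genes, 401 were at 3 CPM or more in untreated HT1376 CT and 4 were members. With the block, 4 of 566 tested ZNF genes were lower and 5 higher. The solute carrier list held 515 genes by symbol, of which 196 were at 3 CPM or more and 4 were members, SLC9A3R2 included. With the block, 7 of its 308 tested genes were lower and 18 higher. The single neuronal adhesion and guidance gene among the members was SLIT3, of 22 listed and 8 at 3 CPM or more.

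The members were placed by annotation (GRCh38, GENCODE 44), as a description without a test. Protein-coding genes were 159 of 185 (85.9%), against 88.9% of genes at 3 CPM or more in untreated HT1376 CT, and long noncoding RNAs 17 (9.19%), against 7.62%. Coding members had a median span of 34.3 kb, against 35.0 kb. Chromosome 1 carried 28 (15.1%), against 10.7%. Within 100 kb of each other lay 8 pairs of neighboring members, among them the citrullinating enzyme gene PADI2 with AL590644.1 and that gene with PADI3, SPTB with RAB15, and FAM198B with its antisense gene FAM198B-AS1. A gene on the other strand overlapped 96 members (51.9%), among them FREM2, FBN1, FBN2, THBS1 and DSG1, against 59.8% of expressed genes, and because no source states the strand setting of the counting, reads of such partners cannot be told apart.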

How the data were processed

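RNA was rRNA-depleted (KAPA RNA HyperPrep with RiboErase) and sequenced. According to the study's methods, STAR (2.7.11a in the submitters' processing notes) placed the reads on GRCh38 using Ensembl 103 gene models, Kraken served to take out Mycoplasma reads, and htseq-count summed reads by gene. The values the authors deposited are raw counts, whole numbers with 1 column per library. Rows without a symbol held 0.110% of counts and were kept under their identifiers. Members and gene lists were chosen with earlier results of these data known. Named genes were FREM2, TM4SF1, the 12 members with the lowest HT1376 CT ratio, the 10 with the highest untreated HT1376 CT CPM, up to 10 members called in each direction in HT1376 FOXP3 KO, up to 4 members of each list and the 2 genes on each side of the fold limit. Others were chosen after their values were seen. The sets were computed with Python and pandas, and tests used edgeR 4.0.16 (glmQLFit, TMM, a total of at least 10 counts in 6 libraries) and DESeq2 1.42.0 under R 4.3.3. The tests were run on simulated counts with larger changes than those of the members called with the block. The simulated counts held no effect of the replicate number, so they cannot check the blocked calls. Alternatives were another normalization, other filters, DESeq2, a bias-adjusted deviance, a replicate block, all 12 libraries in 1 fit, and each library left out. Some genes of these lists are not reported here. Older symbols were matched to current ones by Ensembl identifier.

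Replicate numbers 11, 12 and 13 occur in each group. Deviations of same-numbered libraries from their group means correlated across genes in HT1376 FOXP3 KO (r = 0.197, 0.291 and 0.242) and in HT1376 CT (0.169, 0.162 and 0.154), and other pairs gave -0.208 to -0.00180, so the numbers were taken to pair the libraries. The limit given for a count of 0 covers counting error only, while SEs also include the spread between libraries.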

Additional observations from a re-analysis of the deposited data

Results flagged for a closer look

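CLDN9 and CKB, creatine kinase B, are singled out because every IFNγ library lay below every untreated library in HT1376 CT, by the choice of genes, and above every untreated library in HT1376 FOXP3 KO. The difference between the lines was not tested. Fitted log2 differences in the second line were 0.72 for CLDN9 and 0.73 for CKB, and neither passed (adjusted p = 0.961 and 0.999 with edgeR). CKB had 22.2, 25.1 and 19.6 CPM in untreated HT1376 CT and 9.19, 13.4 and 6.88 with IFNγ, but only 0.640, 0.573 and 0.468 CPM in untreated HT1376 FOXP3 KO and 0.929, 1.1 and 0.75 with IFNγ. Over all genes tested, 5.6% showed treated libraries above untreated ones without overlap, against 2 of the 179 members.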

How the results depend on the processing

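Counts of members called lower in HT1376 FOXP3 KO depended on the model. Against 0 as reported, 7 were called without a filter beyond 1 count, 4 with DESeq2, 42 with the replicate block, 34 with the block and bias-adjusted deviance, 1 with all 12 libraries in 1 fit, 0 to 1 with a library left out (FREM2, without untreated HT1376 FOXP3 KO library 12), and 1 when members were chosen without IFNγ-treated HT1376 CT replicate 12, an alternative added after the data were seen. The block called 1 member higher. Over all genes, 237 calls became 1334 with the block and 1027 with the block and bias-adjusted deviance. In fits added after the data were seen, leaving out both libraries of 1 number gave 24 to 41 calls of members with the block and 12 to 26 with the bias-adjusted deviance too, 24 and 12 without number 11, 41 and 26 without 12, and 30 and 14 without 13. The members' median log2 fold change was -0.33 to -0.24 with a library left out, lowest without IFNγ-treated library 13. The set of 185 genes became 331 at a CPM minimum of 1, 99 at 10, 35 at a limit of 3 times lower, and 199 to 317 with a library of HT1376 CT left out, the last without IFNγ-treated library 11. Without the shallow IFNγ-treated library 12, 132 of the 199 were among the 185. Some settings had fewer libraries or another limit, and the cause of these shifts was not tested.

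Among named members, signs changed as follows. ADORA1 turned to -0.043 with the block and bias-adjusted deviance, and ENSG00000287963 to -0.051 with the bias-adjusted deviance. With a library left out, log2 fold changes ran from -0.32 to 1.49 for ADORA1, -0.26 to 0.13 for CRIP2, -0.24 to 0.17 for WNT10A, -0.69 to 0.63 for ENSG00000287963, -0.32 to 0.33 for DSG1, -0.38 to 0.13 for KIAA1549, -0.052 to 0.37 for GJA5, -0.25 to 0.46 for MVK, -0.33 to 0.13 for PLK1, -0.32 to 0.0073 for NOTCH3, -0.13 to 0.71 for SLC25A10, -0.21 to 0.034 for PPARG and -0.86 to 0.064 for TSPAN2. None of these passed the test of edgeR without the block. Calls of members were rare below 10 CPM.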
